A study of Mus musculus with 12 samples.

Results

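The genes described here are 46 lysosome, V-ATPase and autophagy genes, picked by name from the 39179 Ensembl gene IDs in the count table: 3 transcription factors of the TFEB family, 16 genes of the V-ATPase proton pump, 12 genes of lysosomal hydrolases and membrane proteins, and 15 autophagy genes. The rule goes by gene name and sets no threshold on a measured value. All 46 were matched to 1 ID each. RNA sequencing covered Th1 cells of the mouse, which secrete interferon-gamma, in 2 wild-type (WT) libraries and 2 LDHA-KO libraries. LDHA-KO cells are labelled as a knockout of Ldha, whose enzyme makes lactate from pyruvate in the last step of fermentation. Both genotypes were primary T cells on the C57BL/6 background, and the labels do not say how or in which cells Ldha was removed, nor whether libraries stem from separate animals. Naive CD4+ T cells of both genotypes were given anti-CD3 bound to the plate (5 µg/ml) and anti-CD28 in solution (2 µg/ml) for 3 days, with IL-2 (100 U/ml), IL-12 (10 ng/ml) and anti-IL-4 (10 µg/ml), and were then restimulated for 4 h with PMA (50 ng/ml) and ionomycin (1 µM) plus GolgiStop, a blocker of protein secretion. The chromatin samples of the series, 8 in number, were not analysed here.

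Lysosomes are acidic organelles that digest proteins, lipids and sugars delivered by endocytosis and by autophagy. The V-ATPase, built from a membrane sector (V0) and an ATP-hydrolysing sector (V1), pumps the protons that keep the lumen acidic, and mTORC1, the nutrient-sensing kinase, is switched on at the lysosomal surface. TFEB, TFE3 and MITF are kept in the cytosol by mTORC1 and, once released, enter the nucleus and bind the CLEAR element, an E-box found near the start sites of many lysosomal and autophagy genes. In autophagy, a membrane sheet grows around cargo, conjugation enzymes attach ATG8 proteins to it, and cargo receptors link the cargo to ATG8. T cells use this system to renew mitochondria and supply amino acids during activation.

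The CLEAR-type E-boxes are shown because the promoters of several members hold them and the results can be read against them. The stretches below are RefSeq sequence of build GRCm38.p6, on the strand of the gene and 5′ to 3′, and all lie upstream of the start site that RefSeq's table uses, which for Ctsa, Atg7 and Atp6v1a is inside the span of the gene. Capitals mark CACGTG with a preceding T or a following A where present.
Lamp1: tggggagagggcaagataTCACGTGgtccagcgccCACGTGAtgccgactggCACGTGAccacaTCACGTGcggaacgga
Ctsd: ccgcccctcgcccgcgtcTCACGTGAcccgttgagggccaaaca
Mcoln1: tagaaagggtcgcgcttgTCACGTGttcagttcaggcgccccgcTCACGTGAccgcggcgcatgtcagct
Ctsa: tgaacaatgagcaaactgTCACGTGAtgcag
Atp6v1a: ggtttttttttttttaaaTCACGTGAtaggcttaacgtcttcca
Atg3: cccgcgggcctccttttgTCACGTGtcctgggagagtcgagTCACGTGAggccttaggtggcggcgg
Atg7: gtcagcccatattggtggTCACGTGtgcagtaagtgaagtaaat
The Lamp1 stretch (chr8:13159081-13159160, plus strand) holds 4 such motifs within 80 bases. The others are at chr7:142387901-142387944 (Ctsd, minus strand), chr8:3500429-3500498 (Mcoln1, plus strand), chr2:164833742-164833772 (Ctsa, plus strand), chr16:44139366-44139409 (Atp6v1a, minus strand), chr16:45158716-45158782 (Atg3, plus strand) and chr6:114670945-114670988 (Atg7, plus strand).

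Library totals ran from 919741 to 1293178 counts, so that 1 count was worth 0.773 to 1.09 CPM (counts scaled for library size, here with TMM factors in all gene levels) and a count of 0 allows up to 2.32 to 3.26 CPM, for counting error only. For Ldha itself, WT held 1055 and 1006 counts, while LDHA-KO held 42 and 53 (log2 fold change -4.09, adjusted p = 2.19e-30 by edgeR's quasi-likelihood test). The 8 T cell markers were detected in every library. Of these, 2 were called higher in LDHA-KO (Cd4, 0.51, and Zap70, 0.67) and 2 lower (Cd2, -0.94, and Cd5, -0.39). The 5 Th1 markers summed to 1999 CPM in both WT libraries and to 672 and 658 CPM in LDHA-KO, with 3 of 5 called lower. Among them was Ifng, the interferon-gamma gene, which fell by 2.04 on the log2 scale. Ifng alone held 1585 and 1580 CPM in WT and 382 and 387 CPM in LDHA-KO, while Tbx21 and Stat4 were not called. The part of the T cell and Th1 markers in the results on the members was not tested. Of 10 macrophage and monocyte markers, cells rich in lysosomes, 5 were at 0 in all libraries, among them Lyz2 and C1qa, and the 9 markers other than Csf1r summed to 2.37 to 8.42 CPM in WT and 0 to 4.40 CPM in LDHA-KO. Csf1r alone held 327 and 329 CPM in WT and 393 and 407 CPM in LDHA-KO. It was called higher (0.29, edgeR adjusted p = 0.0050), though not by DESeq2 (adjusted p = 0.171). The 5 B cell markers summed to 4.52 to 10.7 CPM. The 5 dendritic cell markers summed to 29.3 and 37.5 CPM in WT and 18.5 and 19.2 CPM in LDHA-KO. Of the 2 dendritic cell markers tested, Xcr1 was called lower (-1.25, edgeR adjusted p = 0.0060), though not by DESeq2 (adjusted p = 0.272). The strand setting of the counting is not given in the sources used here, and some levels are unusual: Gapdh had 13 to 26 counts, and Cntd1, a gene of meiotic recombination whose locus overlaps Becn1, had 926 to 1230 counts against 77 to 112 for Becn1. Of the mitochondrial genes, mt-Nd6 had 736 to 1902 counts and mt-Cytb, coded on the other strand, 198 to 307. Actb, a gene of high level in most cells, had 2467 to 3420 counts. Had counting used the wrong strand, every value given here would be of antisense reads, and a gene that overlaps a neighbour on the other strand would hold that neighbour's reads. This was not tested. The RNA is from bulk cells, so that fewer cells expressing a gene and less RNA per cell cannot be told apart.

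Of the 46 members, 40 passed the filter on low counts and were tested, and 9 of these differed between genotypes at an adjusted p under 0.05, 7 lower and 2 higher in LDHA-KO. Over all 9914 tested genes, 31.0% were called, 15.4% lower and 15.6% higher, so the 22.5% of members called is below the share of the transcriptome that changed. The lower members were Sqstm1, Wipi2, Atg7, Ctsz, Npc1, Atp6ap2 and Atp6v1d, and the higher ones Npc2 and Ctsb. No called member changed by as much as 2-fold. The median log2 fold change of the tested members was -0.22, against -0.01 for all tested genes, and 23 of 40 stood below 0 against 50.6% of all tested genes. Without WT 1 the members' median was -0.07, over 41 tested members. With library totals in place of TMM scaling, 1170 genes were called higher and 1886 lower, against 1549 and 1527, and 1 member was called higher and 9 lower.

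**Figure D1:**
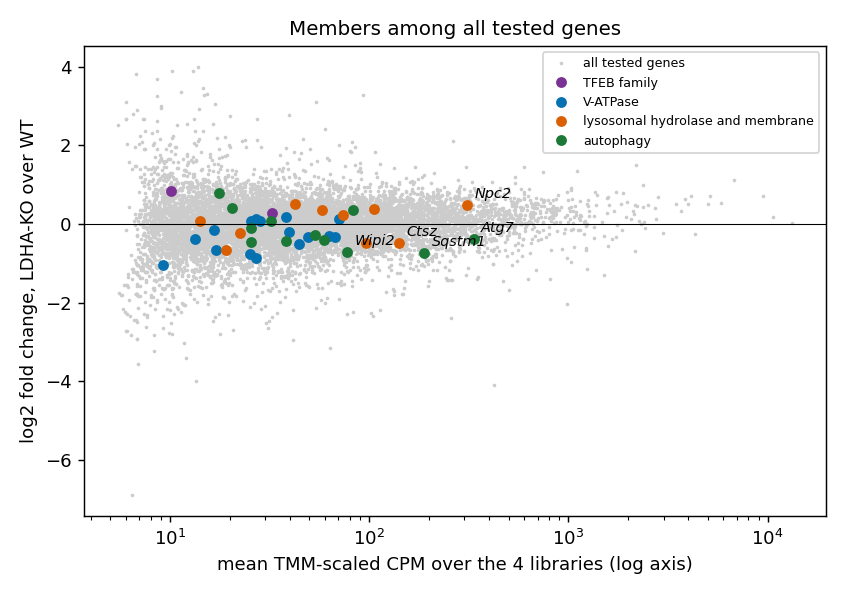
Log2 fold change of LDHA-KO over WT (y axis) against the mean TMM-scaled CPM over the 4 libraries (x axis, log scale) for the 9914 tested genes in grey and the 40 tested members in the colours of their classes. The members lie between -1.05 and 0.85, within the spread of the other genes. Names mark 5 of the called members.

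Non-overlapping groups were found for 25 of the 40 tested members, against 64.3% of all tested genes. LDHA-KO was on the low side for 18 of them and on the high side for 7, against 32.6% and 31.8% of all tested genes. Calls were fewer among genes with few counts. Of the 17 members with at least 200 summed counts, 7 were called, against 43.7% of all genes that abundant, and of the 23 tested members below that, 2 were called, against 19.9% of such genes. DESeq2, the other test run, called 2 members, Sqstm1 and Npc2, and 10.6% of the genes to which it gave an adjusted p. These 2 genes were called in the main test and in all 11 alternatives.

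**Figure D2:**
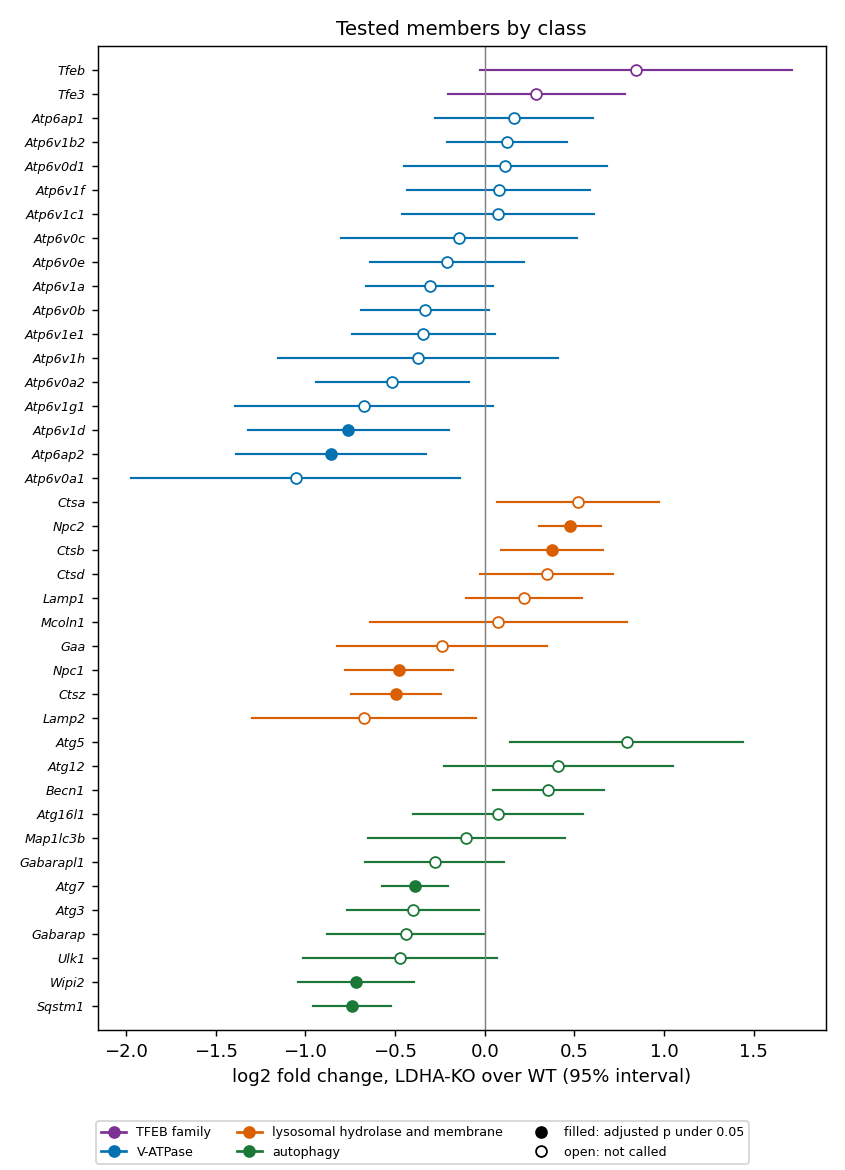
Log2 fold change of LDHA-KO over WT (x axis) with its 95% interval for each of the 40 tested members (y axis), coloured by class, filled where the adjusted p was under 0.05. Filled points sit left of 0 except for Npc2 and Ctsb.

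Neither of the 2 TFEB family genes tested was called by edgeR, and 0 had an unadjusted edgeR p under 0.05. For all tested genes the shares were 31.0% and 40.3%. DESeq2 gave no adjusted p to Tfeb, so it could not call that gene, and did not call Tfe3 (DESeq2 adjusted p = 0.830). With no filter on low counts, unadjusted p was 0.0458 for Tfeb and 0.0199 for Mitf, and neither passed the adjusted test. Tfeb, the best known driver of lysosomal gene expression, stood at 6.12 and 8.70 CPM in WT and 9.04 and 16.7 CPM in LDHA-KO, from 8 to 19 counts a library. WT and LDHA-KO did not overlap, with most of the gap from LDHA-KO 2. The log2 fold change was 0.85 (SE 0.43, 95% interval -0.02 to 1.72, edgeR adjusted p = 0.136), and 0.30 without LDHA-KO 2. Tfe3, its relative on the X chromosome, was at 36.0 and 22.9 CPM in WT and 30.5 and 40.5 CPM in LDHA-KO, and the genotypes overlapped (0.29, interval -0.21 to 0.78). Mitf, better known from pigment cells and osteoclasts, had 2 and 5 counts in WT and 0 in both LDHA-KO libraries, too few to be tested. Against a floor of 3 counts over the LDHA-KO group it was at least 1.83-fold lower, a bound that leaves out the counting error of the 7 WT counts. With that error, the 95% counting interval of WT over LDHA-KO starts at 1.13.

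In the V-ATPase, none of the 6 V0 genes was called by edgeR, against 31.0% of all tested genes. At an unadjusted edgeR p under 0.05, 2 were lower, against 40.3% of all tested genes in either direction. DESeq2 gave no adjusted p to Atp6v0a1 and did not call any of the others. Subunit a anchors the proton path and helps to place the pump. Its isoform gene Atp6v0a1 went from 13.0 and 11.9 CPM in WT to 6.78 and 5.28 CPM in LDHA-KO, the lowest fold change of any tested member, at -1.05 (SE 0.45, edgeR adjusted p = 0.0738). It rested on 6 counts in each LDHA-KO library. In a single random thinning to equal depth it was called (-1.27, edgeR adjusted p = 0.0467), and other draws were not made. Atp6v0a2, another isoform of subunit a, went from 55.1 and 48.2 CPM to 43.0 and 30.8 CPM (-0.51, SE 0.21, edgeR adjusted p = 0.0580). It was called without LDHA-KO 1 (-0.73, adjusted p = 0.0332) and with library totals alone (-0.60, adjusted p = 0.0284), but stood at -0.26 without LDHA-KO 2 (adjusted p = 0.563). The genotypes did not overlap for either isoform gene. The ring genes Atp6v0b and Atp6v0c had log2 fold changes of -0.33 and -0.14, with LDHA-KO 1 low for Atp6v0b (47.5 CPM against 70.4 to 79.9 CPM in the other libraries). Without LDHA-KO 2, Atp6v0b was called (-0.67, adjusted p = 0.0398), and without LDHA-KO 1 it stood at -0.095 (adjusted p = 0.789). Atp6v0b overlaps the non-coding gene Gm12841 on the other strand, which stood at 0.01 (edgeR adjusted p = 0.918). Gm12841 had 553 to 837 counts a library against 42 to 101 for Atp6v0b. Whether reads over this overlap moved the counts of Atp6v0b was not tested. Atp6v0e, a small membrane subunit, stood at -0.21. Atp6v0d1, which links the ring to the stalk, differed between the LDHA-KO libraries by more than between genotypes, at 15.8 and 38.7 CPM against 28.3 and 24.5 CPM in WT, and its log2 fold change of 0.12 turned to -0.73 without LDHA-KO 2.

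Against 31.0% of all tested genes, of the 8 V1 genes Atp6v1d alone was called. It encodes subunit D of the central rotor (chromosome 12, 78842982 to 78862008, GRCm38.p6). Its level was 28.3 and 35.6 CPM in WT and 14.7 and 22.0 CPM in LDHA-KO, from 13 to 45 counts a library. Both LDHA-KO values were under both WT values, with a difference of -0.76 in log2 (edgeR adjusted p = 0.0324, SE 0.28). The call was lost without LDHA-KO 1 (-0.52) or WT 2 (-0.59), with a filter of CPM above 1 (adjusted p = 0.0550) and in DESeq2 (adjusted p = 0.437). Atp6v1f, the other rotor gene of the V1 sector, stood at 0.08 (interval -0.43 to 0.58). The catalytic subunit gene Atp6v1a was at 71.2 and 67.2 CPM in WT and 59.9 and 52.8 CPM in LDHA-KO (-0.31, SE 0.18, edgeR adjusted p = 0.189). Its partner in the catalytic ring, Atp6v1b2, stood at 71.2 and 64.8 CPM in WT and 69.0 and 78.4 CPM in LDHA-KO (0.12, interval -0.21 to 0.46). The genotypes did not overlap for Atp6v1a and overlapped for Atp6v1b2. The peripheral stalk genes Atp6v1e1 and Atp6v1g1 had log2 fold changes of -0.34 and -0.67, and the value of Atp6v1g1 turned on single libraries: it was called without WT 2 (-1.05, adjusted p = 0.0286) and stood at -1.07 without LDHA-KO 1 (adjusted p = 0.0750), -0.14 without WT 1 (0.863) and -0.27 without LDHA-KO 2 (0.722). Atp6v1c1 and Atp6v1h, which join or regulate the sectors, stood at 0.08 and -0.37.

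Of the 2 V-ATPase accessory genes, 1 was called and fell, against 31.0% of all tested genes called. Atp6ap2, also known as the prorenin receptor and needed for pump assembly (chromosome X, 12587759 to 12617051), stood at 32.9 and 37.2 CPM in WT and 17.0 and 21.1 CPM in LDHA-KO. Every LDHA-KO value was below every WT value, and the log2 difference was -0.86 (edgeR adjusted p = 0.0107, SE 0.26). The call was lost without LDHA-KO 1 (-0.71) or WT 2 (-0.77), after thinning (-0.77) and in DESeq2 (adjusted p = 0.329). Atp6ap1, the other accessory subunit gene, was at 34.4 and 37.2 CPM in WT and 45.2 and 36.1 CPM in LDHA-KO, and the genotypes overlapped (0.16, interval -0.28 to 0.61). The difference between the fold changes of these genes was not tested.

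Among lysosomal hydrolases, cathepsin genes moved in opposite directions. Ctsz, which encodes the carboxypeptidase cathepsin Z (chromosome 2, 174427494 to 174439039), had 177 and 153 CPM in WT and 109 and 124 CPM in LDHA-KO. LDHA-KO lay below WT throughout, and Ctsz fell by 0.50 in log2 units (edgeR adjusted p = 0.00179, SE 0.12). DESeq2 was the only alternative of 11 without the call (adjusted p = 0.151). Ctsz overlaps Nelfcd, which stood at -0.54 (edgeR adjusted p = 0.0702). Ctsb, the gene of the cysteine protease cathepsin B (chromosome 14, 63122462 to 63145923), was at 94.1 and 90.1 CPM in WT and 103 and 133 CPM in LDHA-KO. It rose by 0.38 (SE 0.14, edgeR adjusted p = 0.0379), with most of the gap from LDHA-KO 2. This call was kept in 2 of the 11 alternatives, with DESeq2's size factors and without LDHA-KO 1, and the value fell to 0.17 without LDHA-KO 2. With the replicate number as a block it was 0.36 (adjusted p = 0.0643). Ctsb overlaps Fdft1, a gene of sterol synthesis, which rose by 0.64 (edgeR adjusted p = 0.00511). Whether reads over these overlaps moved the counts of Ctsz or Ctsb was not tested.

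Ctsa and Ctsd, which encode a carboxypeptidase that protects other lysosomal enzymes and the aspartic protease cathepsin D, were not called. Ctsa was at 40.6 and 27.7 CPM in WT and 59.9 and 40.5 CPM in LDHA-KO, so that the lower LDHA-KO library stood just under the higher WT library. Its log2 fold change was 0.52 (SE 0.22, edgeR adjusted p = 0.0742), and it was called without WT 1 (0.82, adjusted p = 0.0151), without LDHA-KO 2 (0.81, adjusted p = 0.0153) and with the replicate block (0.56, adjusted p = 0.0483). The value was 0.25 without LDHA-KO 1 (adjusted p = 0.554) and 0.27 without WT 2 (adjusted p = 0.467). Ctsa overlaps Pltp, a lipid transfer gene on the other strand, which rose by 0.63 (edgeR adjusted p = 0.0138). Ctsd was at 48.2 and 54.6 CPM in WT and 56.5 and 72.2 CPM in LDHA-KO (0.35, SE 0.18, edgeR adjusted p = 0.155). Gaa, the acid alpha-glucosidase gene that is mutated in Pompe disease, stood at -0.24 (interval -0.82 to 0.35). Ctsl and Hexa, the genes of cathepsin L and a hexosaminidase subunit, held 2 to 6 and 4 to 10 counts a library and were not tested.

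The sterol export genes Npc1 and Npc2 changed in opposite directions. NPC2 is a soluble protein that picks up cholesterol in the lysosomal lumen and hands it to NPC1, the membrane protein that exports it. Npc2 (chromosome 12, 84754559 to 84773112) stood at 262 and 256 CPM in WT and 364 and 357 CPM in LDHA-KO. Replicates of a genotype lay close together, and Npc2 rose by 0.47 in log2 units, or 1.39-fold (edgeR adjusted p = 2.74e-05, SE 0.09; DESeq2 adjusted p = 0.0122). Npc1 stood at 103 and 123 CPM in WT and 69.0 and 90.7 CPM in LDHA-KO. All LDHA-KO values lay below the WT values, and Npc1 fell by 0.48 (SE 0.15, edgeR adjusted p = 0.0124). The fall lost its call without LDHA-KO 1 (-0.30) or WT 2 (-0.35) and in DESeq2 (adjusted p = 0.304). Npc1 overlaps Rmc1, which stood at -0.03.

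Lamp1 and Lamp2, the most abundant proteins of the lysosomal membrane, were not called. Lamp1 was at 70.4 and 66.4 CPM in WT and 75.7 and 82.8 CPM in LDHA-KO (0.22, interval -0.11 to 0.54). Lamp2, whose protein also serves in chaperone-mediated autophagy, was at 23.0 and 24.5 CPM in WT and 12.4 and 16.7 CPM in LDHA-KO (-0.67, SE 0.31, edgeR adjusted p = 0.0947). The genotypes did not overlap for either gene, with Lamp1 on the high side in LDHA-KO and Lamp2 on the low side. Mcoln1, the gene of a lysosomal calcium channel, had 14 to 19 counts a library and stood at 0.08 (interval -0.64 to 0.79).

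Sqstm1 showed the firmest change among the autophagy genes. It encodes p62, a receptor that carries ubiquitinated cargo into autophagosomes and is itself degraded there (chromosome 11, 50200152 to 50210820). It stood at 230.3 and 243 CPM in WT and 136 and 146 CPM in LDHA-KO. It fell by 0.74 in log2 units, or 1.67-fold (edgeR adjusted p = 4.84e-07, SE 0.11; DESeq2 adjusted p = 0.00152), and its locus overlaps no other RefSeq gene. Optn, the gene of optineurin, another cargo receptor, held 3 and 5 counts in LDHA-KO against 14 and 10 in WT and was not tested. As WT over LDHA-KO its count ratio was 2.36, with a 95% counting interval of 1.02 to 6.07.

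**Figure D3:**
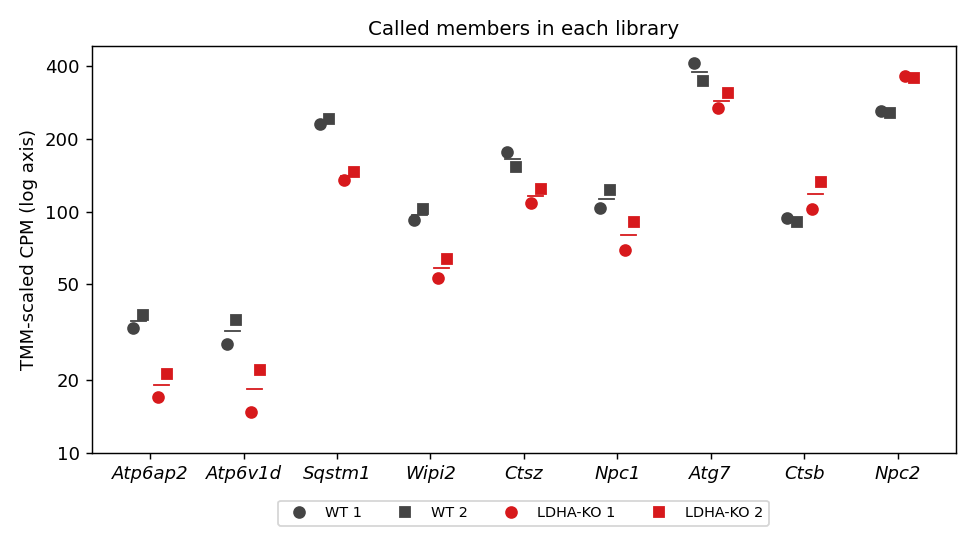
TMM-scaled CPM (y axis, log scale) of the 9 called members (x axis) in each library, WT in grey and LDHA-KO in red, circles for replicate 1 and squares for replicate 2, with a bar at each genotype's mean. In all 9 genes the LDHA-KO points lie on the same side of both WT points.

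Of the genes that start autophagy, Wipi2 fell. Its protein binds the phosphoinositide on the growing membrane and recruits the ATG16L1 complex (chromosome 5, 142629533 to 142669672). Wipi2 stood at 91.8 and 102 CPM in WT and 53.1 and 63.4 CPM in LDHA-KO, a log2 difference of -0.72 (edgeR adjusted p = 0.000550, SE 0.16). The genotypes were well apart, and DESeq2 was the only alternative of 11 that lost the call (adjusted p = 0.102). Ulk1, the kinase gene of the initiation complex and a target of mTORC1 and AMPK, was at 32.1 and 26.9 CPM in WT and 21.5 and 21.1 CPM in LDHA-KO (-0.47, SE 0.27, edgeR adjusted p = 0.183). Becn1, of the lipid kinase complex, was at 67.3 and 79.1 CPM in WT and 87.1 and 98.6 CPM in LDHA-KO (0.35, SE 0.15, edgeR adjusted p = 0.0753). Neither passed the test, although their genotypes did not overlap. Cntd1, which overlaps Becn1, rose by 0.24 (edgeR adjusted p = 0.00182). Wipi1 held 0 to 6 counts a library and was not tested.

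Of the conjugation machinery, Atg7 fell. Its protein is the E1-like enzyme that activates both ATG12 and the ATG8 proteins (chromosome 6, 114643127 to 114860604, overlapping the non-coding models Gm52917 and Gm19040). It stood at 412 and 346 CPM in WT and 268 and 309 CPM in LDHA-KO, a log2 difference of -0.39 (edgeR adjusted p = 0.000968, SE 0.09). The genotypes did not overlap, but WT 1 carried part of the gap: without it the value was -0.26 (adjusted p = 0.0732), and DESeq2 did not call the gene (adjusted p = 0.0876). Atg3, which encodes the E2-like enzyme for ATG8 proteins, was at 61.2 and 73.5 CPM in WT and 53.1 and 49.3 CPM in LDHA-KO (-0.40, SE 0.18, edgeR adjusted p = 0.0929), and with library totals alone it was called (-0.48, adjusted p = 0.0412). Without WT 2 its value was -0.26 (adjusted p = 0.433). Atg5, whose protein is joined to ATG12, was at 13.8 and 11.9 CPM in WT and 23.7 and 21.1 CPM in LDHA-KO (0.79, SE 0.32, edgeR adjusted p = 0.0558), on 15 to 24 counts a library. Atg12 and Atg16l1, its partners in the same complex, stood at 0.41 and 0.07, with overlapping genotypes. Without WT 2 the value of Atg12 was -0.03. Atg12 overlaps Ap3s1, which stood at -0.84 (edgeR adjusted p = 0.148).

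Of the 3 ATG8 genes tested, 0 were called by edgeR or DESeq2, against 31.0% of all tested genes in edgeR. At an unadjusted edgeR p under 0.05, 1 (Gabarap) was lower, against 40.3% of all tested genes in either direction. With no filter on low counts, unadjusted p was 0.0543 for Gabarap and 0.0259 for Gabarapl2, and neither passed the adjusted test. Gabarap was at 45.1 and 43.5 CPM in WT and 29.4 and 35.2 CPM in LDHA-KO (-0.44, SE 0.22, edgeR adjusted p = 0.123), and Gabarapl1 at 57.4 and 59.3 CPM in WT and 55.4 and 42.3 CPM in LDHA-KO (-0.28, SE 0.19). Gabarapl1 overlaps the non-coding gene 1700101I11Rik on the other strand, which fell by 0.69 (edgeR adjusted p = 0.000874). Map1lc3b, the gene of LC3B, whose lipidated form is the usual marker of autophagosomes, was at 24.5 and 27.7 CPM in WT and 30.5 and 19.4 CPM in LDHA-KO. Its log2 fold change was -0.10 (interval -0.65 to 0.45), with a WT range inside the LDHA-KO range. Gabarapl2 had 10 counts in each WT library and 3 in each LDHA-KO library, a count ratio of 2.62 as WT over LDHA-KO (95% counting interval 1.01 to 7.97), and was not tested.

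The classes differed in the direction of their medians. Autophagy genes had a median log2 fold change of -0.33, with 3 lower and 0 higher, and V-ATPase genes had -0.32, with 2 lower and 0 higher. Lysosomal hydrolase and membrane genes had a median of 0.15, with 2 lower and 2 higher. The TFEB family had 0.57 over 2 tested genes, with 0 called. All told, 3 of 12, 2 of 16 and 4 of 10 were called in these classes, against 31.0% of all tested genes. By unadjusted p under 0.05, 4 V-ATPase genes were lower and 0 higher, 5 autophagy genes lower and 2 higher, and 3 hydrolase and membrane genes lower and 3 higher. That mark was passed by 17 of 40 members, against 40.3% of all tested genes in either direction. Single libraries moved the medians, with the V-ATPase at -0.17 without WT 1 and the TFEB family at 0.18 without LDHA-KO 2. Hydrolase and membrane genes stood at 0.25 without LDHA-KO 1, over 11 tested genes against 10 in the main test. Members are not replicates, so these are descriptions of the classes and not tests.

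Summed over its genes, the autophagy class stood at 1106 and 1079 CPM in WT and 821 and 870 CPM in LDHA-KO, a ratio of 0.773 as LDHA-KO over WT. Genes with many reads weigh most in such a sum. The V-ATPase class summed to 618 and 599 CPM in WT and 501 and 526 CPM in LDHA-KO, a ratio of 0.843. The hydrolase and membrane class summed to 869 and 838 CPM in WT and 893 and 965 CPM in LDHA-KO, a ratio of 1.09. Within it, the membrane and sterol export genes had a ratio of 1.15 and the hydrolases 1.01. Npc2 alone rose from a mean of 259 CPM in WT to 361 CPM in LDHA-KO. The mean of the whole class rose by less, from 854 to 929 CPM. So did that of the membrane and sterol export genes, from 478 to 549 CPM. Without Npc2, both means would be lower in LDHA-KO than in WT. The V0 genes had a ratio of 0.802, the V1 genes 0.873 and the cargo receptors 0.589.

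**Figure D4:**
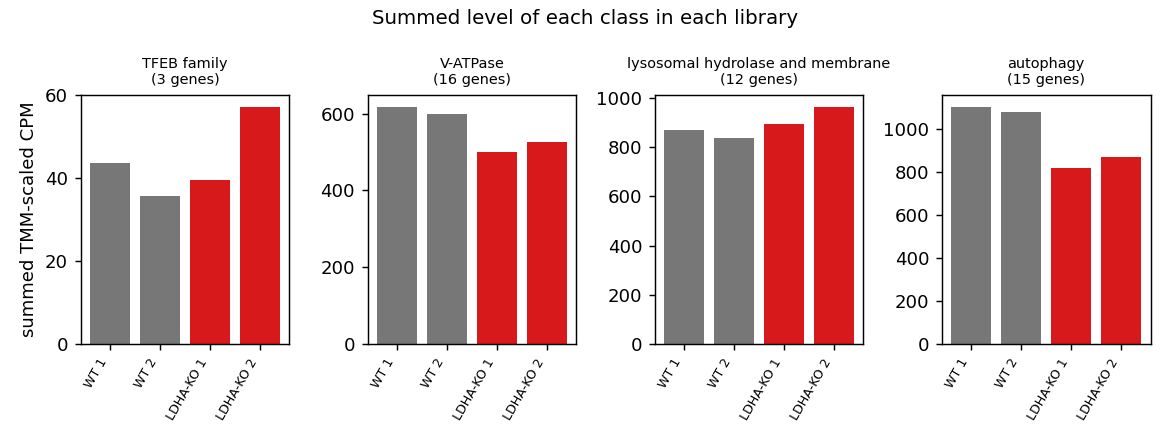
Summed TMM-scaled CPM (y axis, from 0, a scale of its own in each panel) of all listed genes of each class in each of the 4 libraries, WT in grey and LDHA-KO in red. The LDHA-KO bars are below both WT bars for the V-ATPase and autophagy classes. They are above both for hydrolases and membrane proteins, where the rise of Npc2 alone exceeds that of the class mean. For the TFEB family they overlap with WT.

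The E-boxes printed above were set against these values. Promoter windows of 300 bases (250 before the start site and 50 after it) were found in RefSeq's table for 36 of the 46 members. CACGTG, which reads the same on both strands, was in the windows of 13 of the 36 (36.1%), against 8.09% of the 27025 genes with a window. TCACGTG on either strand, which contains it, was in 11 of 36 (30.6%, against 4.29%), and TCACGTGA, which contains both, in 7 of 36 (19.4%, against 1.12%). The 10-base CLEAR sequence, TCACGTGA with a G before it and a C after it, was in 0 of 36, against 0.370% of all genes. A match is a description of the sequence and not a bound site, and the members include well known targets of TFEB.

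None of the 7 genes with TCACGTGA was called by edgeR or DESeq2, and 2 had an unadjusted edgeR p under 0.05, 1 in each direction. Over all tested genes these shares were 31.0% and 40.3%. These are Atg3, Atp6v0d1, Atp6v0e, Atp6v1a, Ctsa, Ctsd and Mcoln1, with log2 fold changes from -0.40 to 0.52 and a median of 0.08, and their summed level was 307 and 302 CPM in WT and 296 and 305 CPM in LDHA-KO. Lamp1, with the 4 motifs in a row, stood at 0.22, and Gaa and Atp6v0b, with TCACGTG, at -0.24 and -0.33. Among called members that have a window, only Atg7 had an E-box in it. The called genes Ctsb and Npc1 had no window and could not be placed. The 18 tested members with a window and no CACGTG had a median of -0.39, and 6 of them were called, 5 lower (Sqstm1, Wipi2, Ctsz, Atp6ap2 and Atp6v1d) and 1 higher (Npc2). This is 33.3%, close to the share of all tested genes. Whether the groups of promoters differ was not tested.

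**Figure D5:**
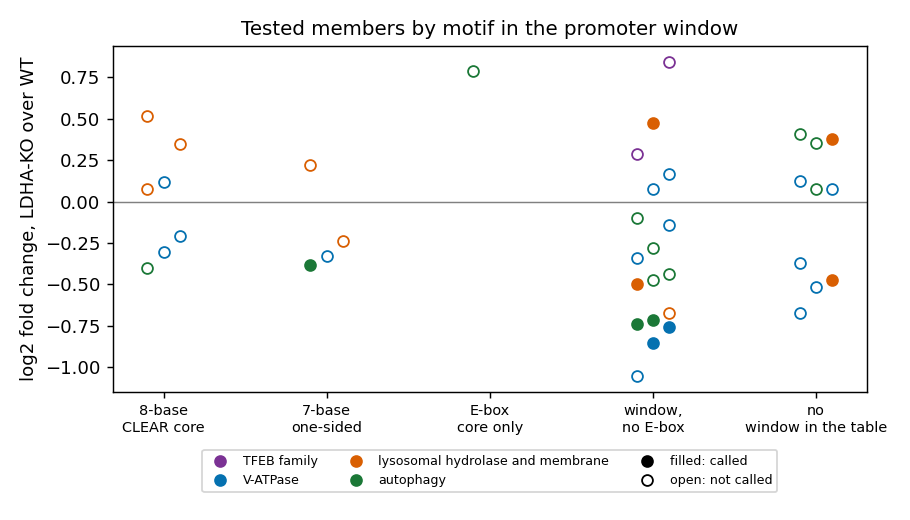
Log2 fold change of LDHA-KO over WT (y axis) of the 40 tested members grouped by the longest E-box motif in the promoter window (x axis; the groups with the 8-base and the 7-base motif, the E-box core alone, a window without it, and no window in the table). Filled points are called genes; the 7 points of the 8-base group are all open and lie between -0.40 and 0.52.

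A wider set of 166 genes of the same pathways, all found in the table, gave 124 tested genes, of which 17 were lower and 11 higher. Of 36 other autophagy genes, 8 fell and 1 rose, with a median of -0.16. The fallers included Nbr1, the gene of another receptor for ubiquitinated cargo, at 67.3 and 61.7 CPM in WT and 31.7 and 27.3 CPM in LDHA-KO (log2 fold change -1.14, SE 0.21, edgeR adjusted p = 2.96e-05). Ulk2, the second kinase of the ULK family, fell by 1.08 (edgeR adjusted p = 0.0141), while the mitophagy receptor gene Bnip3 rose by 1.15 (edgeR adjusted p = 0.0123). Of 26 genes of nutrient signalling and fusion at the lysosome, 3 rose and 3 fell. They include Rraga, which encodes the RagA GTPase that brings mTORC1 to the lysosome and fell by 0.97, Arl8a, a GTPase gene of lysosome movement, which fell by 0.86, and Vps11, of the tethering complexes, which rose by 0.97.

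Of 29 other luminal proteins, 4 rose and 3 fell, with a median of 0.25. Hyal2, a hyaluronidase gene, fell by 1.98 and Galc, the galactosylceramidase gene, by 1.79, on 7 and 11 summed counts in LDHA-KO against 36 and 49 in WT. The beta-galactosidase gene Glb1 rose by 1.25. Of 26 other membrane and sorting genes, 1 rose (Nagpa, 0.84) and 3 fell, among them Tmem106b (-1.23) and Slc29a3 (-0.78), a lysosomal nucleoside transporter gene. Of 7 other V-ATPase subunits and regulators, 2 rose and 0 fell: Ncoa7 (1.34), whose protein binds the V-ATPase, and Tmem9 (1.19). These shares stand against the 31.0% of all tested genes called, and the wider set, with 28 of 124, also falls short of it. All calls in the wider set are edgeR's. Of its named genes, DESeq2 called only Nbr1 (DESeq2 adjusted p = 0.0302) and Ncoa7 (0.0401), and it gave no adjusted p to Hyal2 and Glb1. Counts a library were 8 to 21 for Glb1, 8 to 20 for Tmem9 and 9 to 26 for Bnip3.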

How the data were processed

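The authors deposited 1 table of raw counts of reads per Ensembl gene, not normalised, with 43374 rows for 39179 IDs. The 4195 extra rows repeated the values of their ID and were removed. Column names give genotype and number only and were taken as the RNA libraries because they hold counts per gene. HTSeq 0.6.0, STAR 2.3.0e, Bowtie2 2.2.6, Trimmomatic 0.33 and FastQC 0.11.2 appear, per the submitters' processing notes, with build mm10 (GRCm38). What each did, which annotation was used, the strand setting and how reads over overlapping genes were counted is not given in the sources used here.

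Symbols came from an Ensembl table, positions and promoters from RefSeq (GRCm38.p6), by symbol. Exon lengths were not used here, so levels are not scaled for gene length. Class sums, and counts of a gene set beside those of another, do not allow for it. Genotypes were compared with edgeR 4.0.16 (R 4.3.3), by its quasi-likelihood test, TMM-scaled, with genotype alone in the model, over 9914 genes left by its expression filter (minimum count 10, minimum total 15). P-values were adjusted over all of them by Benjamini-Hochberg, and calls need an adjusted p under 0.05. SE and 95% intervals of log2 fold changes come from the same fit. DESeq2 1.42.0 was an alternative. The fit was tested on simulated data. Ratios of low counts have exact 95% counting intervals. Members, lists, the split at 200 counts and the motifs were chosen with earlier results of these data known. All members are named. Of the wider lists, at most 3 called genes with the largest change are named. Replicates of a genotype differed by more than counting noise (chi-square per gene 1.15 in WT and 1.23 in LDHA-KO) and were kept as 2 each. No label names separate animals or cultures. The p-values therefore measure the spread between libraries, which may be technical.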

Additional observations from a re-analysis of the deposited data

How the results depend on the processing

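Alternatives were other scalings, other filters, DESeq2, thinning by a single random draw, a replicate block and leaving out each library. A lone library left in a genotype was assumed to vary like the others. DESeq2 called 506 genes higher and 395 lower. Leaving out a library left 1018 to 1231 higher and 955 to 1208 lower. Members called lower numbered 5 to 8 without a library and 1 in DESeq2. Members called higher numbered 1 to 2 without a library, and 1 in DESeq2, with library totals, with no filter, with CPM above 1 and after thinning. The cause was not tested. The median of all members was -0.31 with library totals and -0.24 to -0.070 without a library. For the V-ATPase it was -0.40 and -0.26 to -0.17, and for autophagy -0.43 to -0.26 without a library. For hydrolase and membrane genes it was 0.064 with library totals and 0.15 to 0.25 without a library. It was 0.28 with no filter or with CPM above 1 and 0.27 in DESeq2, over 12 genes against 10 in the main test. For the TFEB family it was 0.18 to 0.82 without a library, and 0.20 after thinning, when 1 gene was tested, against 2 in the main test. The medians of different settings are thus not always over the same genes. Library totals shifted the median of all genes to -0.09.

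Some uncalled members changed sign, and not all of them were near 0 in the main test, where Atg12 stood at 0.41, Atp6v1h at -0.37 and Gaa at -0.24. With library totals the values were -0.0097 for Atg16l1, -0.0079 for Atp6v1c1, -0.0062 for Atp6v1f and -0.0064 for Mcoln1, which had -0.030 after thinning. Without a library, they ranged from -0.029 to 1.06 for Atg12, -0.070 to 0.23 for Atg16l1, -0.27 to 0.00098 for Atp6v0c, -0.73 to 0.56 for Atp6v0d1, -0.071 to 0.24 for Atp6v1c1, -0.032 to 0.23 for Atp6v1f, -0.88 to 0.11 for Atp6v1h, -0.52 to 0.070 for Gaa, -0.41 to 0.24 for Map1lc3b and -0.032 to 0.22 for Mcoln1.

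Same-numbered libraries did not deviate together (correlation -0.03 across genes), so numbers were not used as pairs. With the replicate block, 1397 genes were called higher and 1406 lower, and of the members 2 and 7, with Ctsa (0.56) gained and Ctsb (0.36) lost. At about 1 CPM per count, the 6 untested members and folds under 2 in low genes were hard to detect.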
